A study of Mus musculus with 18 samples.

Results

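The keratin genes were taken as every gene of the count table whose symbol is Krt followed by a number and at most 1 letter, which gave 52 genes among 36757. They were followed across 18 RNA sequencing libraries of mouse large intestine and intestinal organoids. Of the 52, 4 were classed as keratins of the intestinal simple epithelium (Krt8, Krt18, Krt19 and Krt20), 3 as other simple keratins (Krt7, Krt23 and Krt80), 16 as squamous keratins, 24 as keratins of hair and hair follicle, 1 as corneal, and 4 were left unclassified. The 16 squamous genes were 3 of the basal layer (Krt5, Krt14 and Krt15), 4 induced by wounding (Krt6a, Krt6b, Krt16 and Krt17), 5 of non-cornified and 4 of cornified suprabasal layers.

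All mice were C57BL/6. Each model had 3 libraries labelled wild type, from RNF138fl/fl mice, and 3 labelled RNF138-/-, called WT-labelled and KO-labelled here. Mice of 6 to 8 weeks entered the study. In the colitis model they drank 2% dextran sulfate sodium (DSS) for 7 days and plain water for 14 days, in a cycle that was repeated 2 times, and colorectal tissue was taken 4 weeks after the last cycle. In the colitis-associated cancer (CAC) model the carcinogen azoxymethane (AOM, 10 mg/kg) was injected 4 days before the same DSS cycles. The organoids were grown in matrigel from digested fragments of CAC intestine that carried tumors. The sources used here do not give the promoter of a Cre recombinase, and do not say whether a library came from 1 mouse or a pool, so p-values measure the spread between libraries, which may be technical.

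Keratins are the intermediate filament proteins of epithelial cells. A filament needs a type I (acidic) and a type II (basic) partner, and the pair in use follows the kind of epithelium. The single-layered intestinal lining is built on KRT8 with KRT18, KRT19 and, in mature surface cells, KRT20, whereas layered squamous epithelium uses KRT5 with KRT14 in its basal cells, KRT4 with KRT13 above them in moist mucosa, KRT1 with KRT10 in the epidermis, and KRT6 with KRT16 and KRT17 after injury. Hair keratins are hardened partners of the hair shaft, nail and tongue papillae.

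In the mm10 annotation, 25 members lay in one cluster on chromosome 11 between 99232761 and 100269871, all of type I, and 27 in another on chromosome 15 between 101347444 and 102032027, which held the 25 counted as type II, Krt18, and Krt88, whose type was not settled here. It was summed with type I, at no more than 28 counts in any library. RefSeq promoters (build GRCm38.p6, 250 bases before to 50 after the start) matched 34 of the 52. The letters TATAAA, searched on both strands, were in 18 of these (52.9%) and in 14.2% of all 27025 promoters. Within the stretch from 40 to 15 bases before the start, on the coding strand, 12 of 34 keratin promoters held them, 8 of the 12 in hair keratins, against 2.22% of all promoters. Among the intestinal keratins with an entry, Krt20 alone had them there, and Krt8 and Krt18 did not. The letters TGAGTCA and CAATAAA were in 0 of 34 (5.17% and 4.84% of all promoters), and CACCC in 28 (82.4%, against 56.7%). TATAAA and CAATAAA share the letters ATAAA. These are matches of letters only. The 150 bases before the start are shown for 3 keratins with TATAAA near the start (capitals) and 3 without, since the levels of these 6 genes are described below, and all 6 lie on the minus strand.
Krt20 (chr11:99438154-99438303): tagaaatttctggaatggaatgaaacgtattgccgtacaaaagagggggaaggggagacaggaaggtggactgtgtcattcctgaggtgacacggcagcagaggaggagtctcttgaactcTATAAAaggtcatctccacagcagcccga
Krt10 (chr11:99389365-99389514): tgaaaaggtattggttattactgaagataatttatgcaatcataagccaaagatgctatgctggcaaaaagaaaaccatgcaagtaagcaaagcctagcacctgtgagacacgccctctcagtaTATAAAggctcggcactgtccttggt
Krt34 (chr11:100041555-100041704): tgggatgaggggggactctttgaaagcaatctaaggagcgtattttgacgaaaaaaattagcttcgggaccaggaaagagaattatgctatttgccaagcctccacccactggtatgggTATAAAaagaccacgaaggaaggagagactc
Krt36 (chr11:100105627-100105776): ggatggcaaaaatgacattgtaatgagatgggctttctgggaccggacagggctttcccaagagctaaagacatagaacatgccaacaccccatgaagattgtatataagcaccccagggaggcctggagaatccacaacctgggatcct
Krt13 (chr11:100121567-100121716): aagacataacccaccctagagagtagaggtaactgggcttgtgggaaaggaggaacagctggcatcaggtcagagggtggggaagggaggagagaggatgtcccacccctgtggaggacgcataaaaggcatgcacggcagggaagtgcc
Krt90 (chr15:101562951-101563100): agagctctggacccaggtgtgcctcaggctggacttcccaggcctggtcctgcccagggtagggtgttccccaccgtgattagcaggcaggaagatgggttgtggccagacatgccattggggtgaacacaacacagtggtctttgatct

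Total counts per library were between 11514716 and 24390082, and keratins took between 0.349% and 1.08% of them. Several facts about the libraries bear on what follows. The gene Rnf138 was counted in every library (227 to 1120 counts). It had 16 to 25.5 CPM (library-size-scaled counts) in WT-labelled and 18.1 to 19.5 in KO-labelled colitis tissue, 21.0 to 28.0 and 39.6 to 45.3 in CAC tissue, and 37.4 to 55.2 and 42.6 to 49.9 in organoids. The groups overlapped in colitis and organoids, and in CAC all 3 KO-labelled libraries were higher, so the count shows no loss, and a count per gene cannot show a missing exon, so directions below are given by label. The 3 WT-labelled organoid libraries had 0 counts on 4 Y-linked genes and 4924 to 6881 on Xist, while the 3 KO-labelled ones had 3239 to 5315 and at most 3, so sex and genotype cannot be told apart in the organoids. All colitis and CAC libraries had Y-linked counts (1911 or more). WT-labelled CAC replicate 3 stood apart from the other 2 of its group, with the lowest Krt7, Krt23, Krt36, Krt4, Krt13, Krt6a and Krt14 and the highest Krt20 of the 3.

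Of the 52 keratins, 12 had at most 3 counts in every library and 35 had more than 10 in at least 1. More than 100 counts in some library were reached by 22, which included all 7 simple keratins, 9 squamous and 5 hair keratins. The filter on low counts left 14 for the genotype test in colitis, 21 in CAC and 25 in organoids, and 29 for tests between models. CPM were normalized by TMM, and levels of different genes were compared per kb of exon. By that measure Krt8 came first in every group, from 1029 ± 125 CPM per kb (SD, n = 3) in KO-labelled CAC tissue to 2351 ± 584 in KO-labelled colitis tissue. The simple intestinal keratins made up 99.0% to 99.2% of all keratin CPM per kb in the 6 colitis libraries, so the tissue label and the keratins did not disagree. In the 3 organoid libraries labelled WT they made up 86.4, 83 and 87.7%, and in the 3 labelled KO 89, 88.1 and 89.1%.

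Between genotypes, no keratin was called in colitis or in CAC at the study's thresholds (adjusted p under 0.05 by edgeR with Benjamini-Hochberg adjustment, and a fold of at least 2), and 9 were called in the organoids, all of them lower in KO-labelled libraries. With no filter on low counts, 10 were lower and 2 higher in the organoids (Krt15 and Krt5), and without WT-labelled organoid replicate 1, 10 were lower and 1 higher (Krt20, 1.02, SE 0.17, adjusted p = 0.00248). In colitis 0 of 14 tested keratins passed, where 0.0902% of all genes did, with 3 at an unadjusted p under 0.05 (10.4% of all genes) and 1 called by DESeq2 (2.07% of all genes). In CAC 0 of 21 passed, where 5.37% of all genes did, with 6 at an unadjusted p under 0.05 (33.8% of all genes) and 4 called by DESeq2 (19%, and 13.9% of all genes). In the organoids 9 of 25 passed (36%), where 15% of all genes did, and DESeq2 called 8 (15.2% of all genes). The median log2 fold change, KO-labelled over WT-labelled, was 0.10 over the keratins tested in colitis, -0.016 in CAC and -0.77 in organoids, beside 0.02, 0.0056 and -0.036 over all genes.

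**Figure D1:**
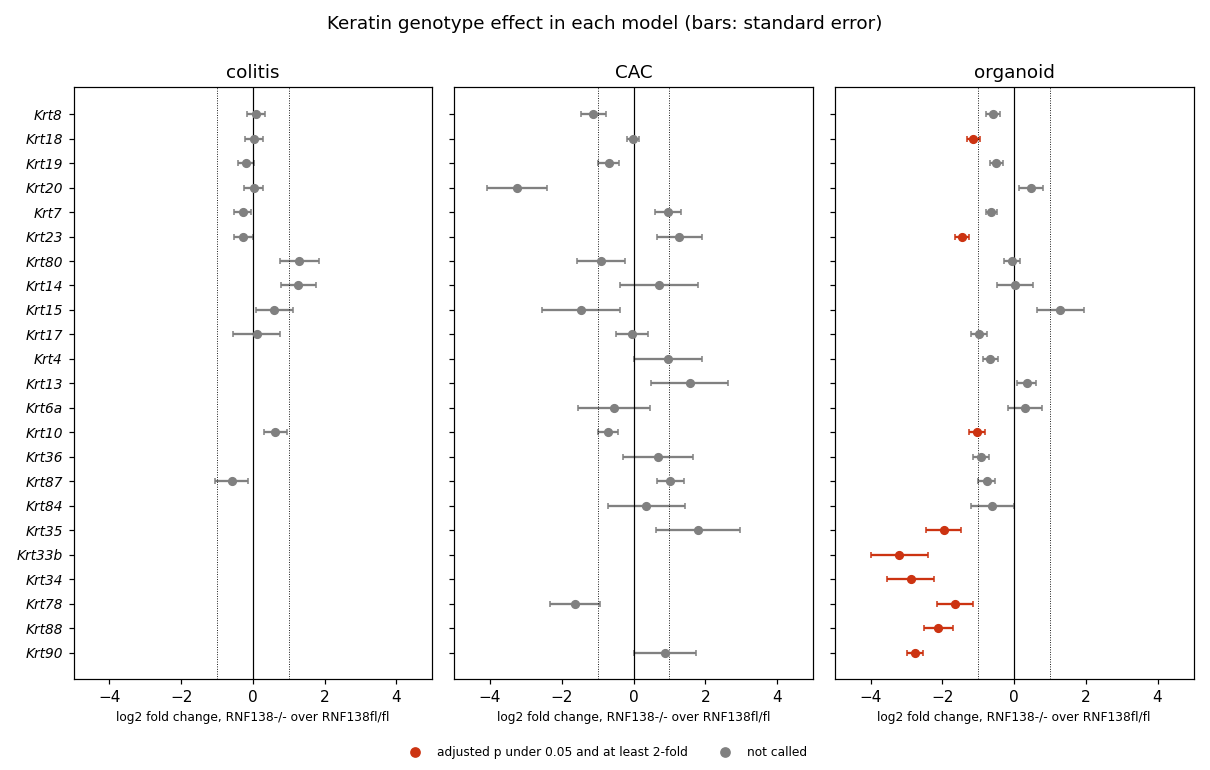
Log2 fold change of 23 keratins, KO-labelled over WT-labelled libraries, in colitis, CAC and organoids (edgeR, points with standard errors, 3 libraries against 3, genes below the count filter left blank). Red points passed an adjusted p under 0.05 and a fold of at least 2, which 9 keratins did in organoids, all to the left of 0, and none in colitis or CAC.

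Krt20, the type I keratin of mature surface colonocytes, had the lowest fold among the 21 keratins tested in CAC. Its CPM were 754, 451 and 2179.9 in the WT-labelled CAC libraries and 233, 49.6 and 92.1 in the KO-labelled ones. The groups did not overlap, and the highest value was that of WT-labelled replicate 3. The log2 fold change was -3.24 (SE 0.83, adjusted p = 0.0612), so the call was missed by edgeR, while DESeq2 gave an adjusted p of 1.85e-04 and a fit of all 18 libraries by edgeR 0.00222. Without WT-labelled replicate 3 it was -2.27 (SE 0.62, adjusted p = 0.0743). An exact permutation test gave p = 0.1 (two-sided, n = 3), the smallest that 3 libraries against 3 allow.

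In colitis Krt20 had 1048, 676 and 1202 CPM in WT-labelled and 1114, 1070.3 and 734 CPM in KO-labelled libraries, which overlapped. In the organoids it was lower than in colitis in all 6 libraries, with 262, 104 and 116 CPM in WT-labelled and 265, 179.6 and 238 CPM in KO-labelled ones, and a log2 fold change between genotypes of 0.46 (SE 0.33, adjusted p = 0.298). The genotype difference of Krt20 in CAC was itself apart from those of the other models. The log2 difference of the fold changes was -3.20 (SE 0.81, adjusted p = 0.017) for CAC minus colitis and 3.68 (SE 0.81, adjusted p = 0.00493) for organoids minus CAC. Among 29 keratins tested for such differences, 6 were called for CAC minus colitis (11.9% of all genes) and 8 for organoids minus CAC (18.9% of all genes). Without WT-labelled CAC replicate 3 the first of these counts was 0 and Krt20 had an adjusted p of 0.053, while the second was 7 and kept Krt20 (0.0116).

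Krt8, the type II partner of all the intestinal type I keratins, had 4209.6, 2662 and 5814 CPM in WT-labelled and 2216, 1742 and 2086 CPM in KO-labelled CAC libraries. These groups did not overlap, and the log2 fold change was -1.12 (SE 0.35, adjusted p = 0.0863). With DESeq2 the adjusted p was 0.0105, and without WT-labelled replicate 3 it was 0.0995 by edgeR. In colitis Krt8 had 4839, 4456 and 3809 CPM against 5627, 4814 and 3369 CPM, and the groups overlapped. Organoid libraries gave 4085, 3492 and 3799 CPM against 2970.4, 2079 and 2749 CPM, all 3 KO-labelled ones below all WT-labelled ones, with a log2 fold change of -0.59 (SE 0.18, adjusted p = 0.0379), which is under the fold threshold. The sequence of Krt8 transcripts is shared with the pseudogene Krt8-ps in 29.7% of its 50-base windows, so its count is uncertain by what that copy takes or gives.

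Krt18, the classic type I partner of Krt8, differed from it in CAC. Its CPM were 707, 566 and 679 in WT-labelled and 599.6, 703 and 688 in KO-labelled CAC libraries, and the groups overlapped. The log2 fold change was -0.016 (SE 0.18, adjusted p = 0.96), and its sign turned with CPM not scaled by TMM (0.27), a setting that moved the median of all genes in this comparison by 0.26. In the organoids Krt18 was called lower in KO-labelled libraries. There it had 1522, 1800.2 and 1570.1 CPM in WT-labelled and 841, 612 and 847 CPM in KO-labelled libraries, with a log2 fold change of -1.14 (SE 0.18, adjusted p = 0.00359). Without KO-labelled organoid replicate 2 the fold was just under the threshold (-0.99, SE 0.18, adjusted p = 0.017). The genotype difference of Krt18 was apart between organoids and CAC by -1.14 (SE 0.30, adjusted p = 0.0135).

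Krt19, the smallest keratin and a type I partner found along the whole crypt, had 2695, 1709 and 2630.1 CPM in WT-labelled and 1885, 1254 and 1356 CPM in KO-labelled CAC libraries, which overlapped (-0.69 on the log2 scale, adjusted p = 0.148). In the organoids it had 1669, 1609 and 1464 against 1367, 904 and 1203 CPM. These did not overlap, and the log2 fold change was -0.50 (SE 0.18, adjusted p = 0.0626). In colitis it had 2645, 2567 and 2124 against 2082, 2399.5 and 1837 CPM, which overlapped.

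**Figure D2:**
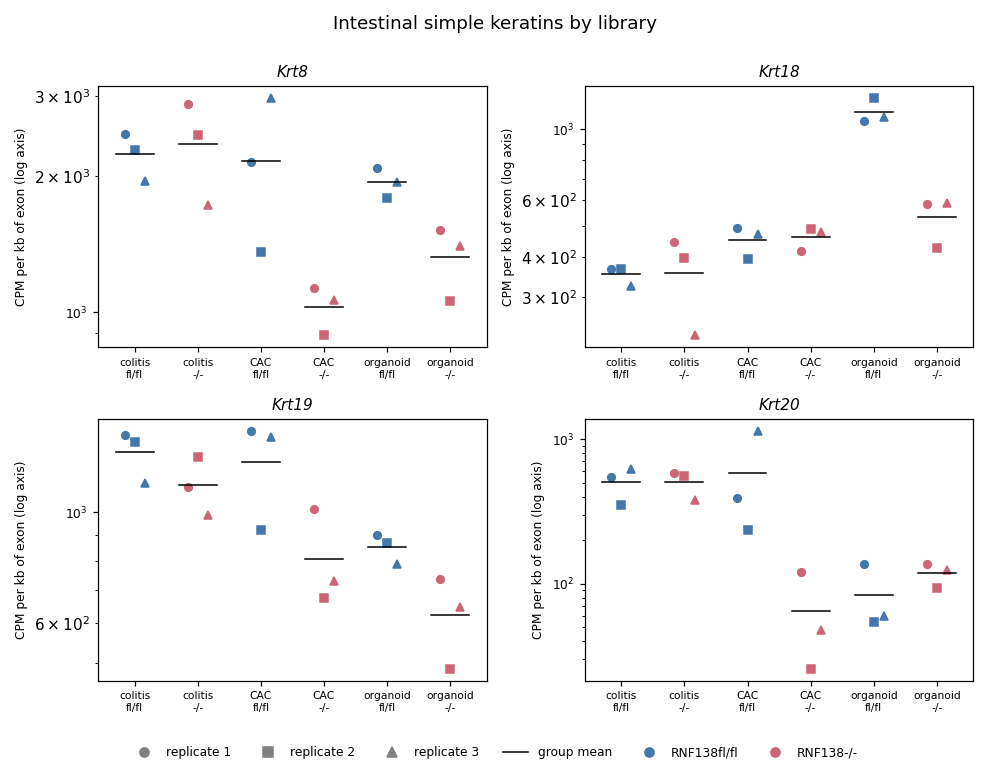
Level of Krt8, Krt18, Krt19 and Krt20 in each of the 18 libraries, in CPM per kb of exon on log axes, with symbols for replicates and a line at the mean of each group of 3. Krt8 and Krt20 of the 3 KO-labelled CAC libraries sit below all WT-labelled CAC ones, Krt18 does not, and the highest Krt20 value is that of WT-labelled CAC replicate 3.

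Summed per kb, the 4 intestinal keratins reached 4486, 2909 and 5991 CPM per kb in WT-labelled and 2686, 2080.2 and 2323 CPM per kb in KO-labelled CAC libraries. The means differed by -0.92 on the log2 scale (exact permutation p = 0.1, two-sided, n = 3), or by -0.65 without WT-labelled replicate 3. In the organoids the sums were 4181, 3957 and 3882 against 2977, 2068 and 2765 CPM per kb, a difference of -0.62 (exact p = 0.1), and in colitis the groups overlapped (-0.02, exact p = 0.9). Epithelial genes other than keratins moved as well. The mean log2 CPM of 14 such genes was 8.9 ± 0.431 in WT-labelled and 7.82 ± 0.185 in KO-labelled CAC tissue (SD, n = 3). Relative to this list, the mean log2 CPM of the 4 keratins was 1.9, 1.42 and 1.7 in WT-labelled and 1.74, 1.34 and 1.61 in KO-labelled CAC libraries, which overlapped (exact p = 0.6). That mean combined opposite directions. Relative to the list, log2 Krt20 was 0.846, 0.22 and 1.7 in WT-labelled and -0.168, -2.06 and -1.21 in KO-labelled libraries, which lay below without overlap. For Krt18 the values were 0.752, 0.547 and 0.0125 and 1.19, 1.76 and 1.69, with the KO-labelled libraries above without overlap. Without Krt20 the mean of the other 3 was 0.54 higher in KO-labelled libraries, and with Epcam alone as the reference the difference for all 4 was -0.98 (exact p = 0.1 for each). In bulk tissue fewer cells of a type and less RNA per cell cannot be told apart.

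Because ratios within a library do not depend on its scaling, the partners were also set against each other per length. The ratio of Krt18 to Krt8 was 0.229, 0.29 and 0.159 in WT-labelled and 0.369, 0.549 and 0.45 in KO-labelled CAC libraries, higher in all 3 of the latter. In the organoids the order was the opposite, with 0.508, 0.703 and 0.563 in WT-labelled and 0.386, 0.401 and 0.42 in KO-labelled libraries. In colitis all 6 libraries lay between 0.132 and 0.167, near WT-labelled CAC replicate 3. The ratio of Krt20 to Krt19, mature surface keratin over pan-epithelial keratin, was 0.269, 0.254 and 0.798 in WT-labelled and 0.119, 0.0381 and 0.0654 in KO-labelled CAC libraries. In the organoids it was 0.151, 0.0622 and 0.0762 and 0.187, 0.191 and 0.191, so that KO-labelled libraries were higher there and lower in CAC. None of these groups of CAC or organoids overlapped, and each exact permutation test gave p = 0.1 (two-sided, n = 3).

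**Figure D3:**
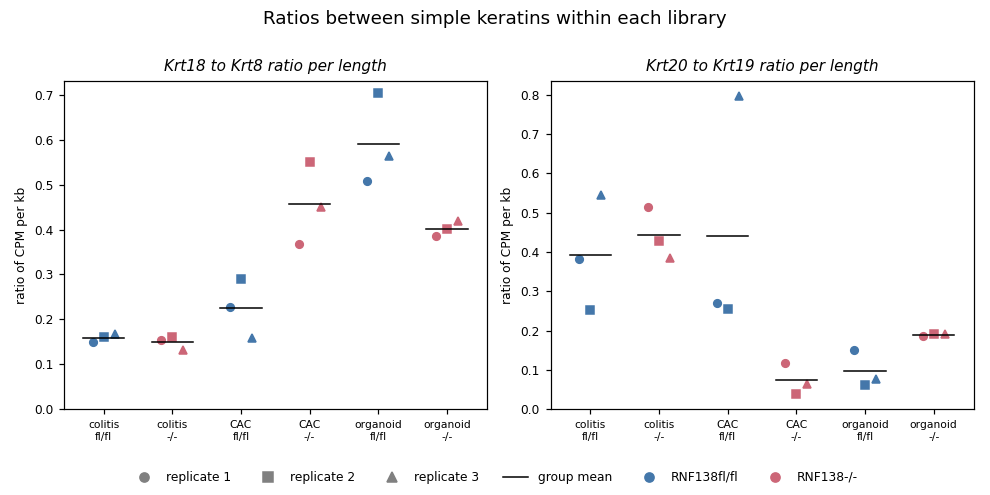
Ratio of Krt18 to Krt8 (left) and of Krt20 to Krt19 (right) in each library, computed from CPM per kb of exon on linear axes from 0, with symbols for replicates and a line at each group mean. Both ratios separate the genotypes of CAC and of the organoids, in opposite directions, and overlap in colitis.

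Krt7, a type II keratin of ducts and glands, was the fifth or sixth keratin per length in colitis and CAC tissue. Its CPM were 369, 294 and 120.0 in WT-labelled and 515, 521 and 517 in KO-labelled CAC libraries, without overlap. The log2 fold change was 0.96 (SE 0.37, adjusted p = 0.125), and without WT-labelled replicate 3, whose value was close to that of the lowest WT-labelled colitis library, it was 0.65 (SE 0.15, adjusted p = 0.0506). Organoids turned this order around. There Krt7 had 614, 617 and 586 CPM in WT-labelled and 459, 317 and 433 CPM in KO-labelled libraries (-0.64, SE 0.16, adjusted p = 0.018 on the log2 scale, under the fold threshold). The difference of the genotype effects between organoids and CAC was -1.61 (SE 0.42, adjusted p = 0.0118).

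Krt23, a type I keratin of simple epithelia, showed the same arrangement with larger folds. In CAC it had 108, 90.5 and 18.4 CPM in WT-labelled and 248, 180.3 and 107 CPM in KO-labelled libraries, which overlapped, with a log2 fold change of 1.28 (SE 0.62, adjusted p = 0.191). WT-labelled replicate 3 was again the low one. In the organoids it had 514, 675 and 420.0 CPM in WT-labelled and 230.1, 169 and 209 CPM in KO-labelled libraries, without overlap. It was called lower there, with a log2 fold change of -1.46 (SE 0.21, adjusted p = 0.00275), under each of 13 alternatives. The difference between organoids and CAC was -2.74 (SE 0.62, adjusted p = 0.00559). In colitis the 6 libraries lay between 6.05 and 9.38 CPM.

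Krt80, a type II keratin found at low level in many epithelia, had at most 9.47 CPM in colitis and CAC and 18, 13.3 and 10.5 against 11.8, 13.9 and 15.9 CPM in the organoids, with overlap. Together Krt7, Krt23 and Krt80 took 2.6, 3.21 and 0.492% of keratin CPM per kb in WT-labelled and 7.58, 8.17 and 5.63% in KO-labelled CAC libraries (exact p = 0.1). In the organoids they took 8.65, 10.9 and 7.98% and 6.39, 6.62 and 6.36%, with the WT-labelled libraries higher.

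From colitis to CAC, several keratins with few counts in colitis libraries were higher in CAC libraries. Not every called keratin was near 0 in colitis, where Krt23 had 100 to 186 counts and Krt14 22 to 93. Among WT-labelled libraries 13 of 29 tested keratins were called higher and 0 lower (44.8%), where 13.6% of all genes were called. Among KO-labelled libraries 15 were higher and 8 lower (79.3%), where 37.1% of all genes were called. The 2 comparisons are of separate libraries. Without WT-labelled CAC replicate 3 the first count was 12, and without WT-labelled colitis replicate 1 or 2 it was 8. Over the 29 keratins the median fitted log2 fold change was 2.26 in WT-labelled and 2.21 in KO-labelled libraries, beside 0.04 over all genes in both. Many of these folds are against groups with 3 counts or fewer per library, and with 13 such genes in WT-labelled and 9 in KO-labelled libraries set to the bound that a floor of 3 counts allows, or to 0 where none could be given, the medians were 0.67 and 1.07. Cell type lists moved with the KO-labelled comparison. Called lower in CAC were 11 of 12 genes of colonocyte and goblet differentiation, 7 of 14 epithelial genes, all 6 each of smooth muscle, B and plasma cells, and enteric glia and neurons, 3 of 4 skeletal muscle genes and 1 of 6 fibroblast genes, and 4 of 6 myeloid genes were higher. Among WT-labelled libraries 1 differentiation, 1 epithelial and 1 glia and neuron gene were lower, and 1 B and plasma cell and 2 myeloid genes higher. The part of these lists in the keratin calls was not tested.

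Krt36, a hair-type type I keratin, was among those called in both labels. It had 0.342, 0.511 and 0.125 CPM in WT-labelled and 0.719, 0.242 and 0.303 CPM in KO-labelled colitis libraries. In CAC it reached 41.6, 48.7 and 1.85 CPM in WT-labelled and 91.9, 26.5 and 32.4 CPM in KO-labelled libraries, and it stayed between 16.4 and 42.4 CPM in all 6 organoid libraries. Every CAC library was above every colitis library, WT-labelled CAC replicate 3 by the least. The log2 fold change from colitis to CAC was 6.51 (SE 0.97, adjusted p = 2.72e-04) in WT-labelled and 6.88 (SE 0.96, adjusted p = 3.41e-05) in KO-labelled libraries. Krt23 rose from colitis to CAC by 3.03 (SE 0.47, adjusted p = 3.97e-04) in WT-labelled and 4.63 (SE 0.51, adjusted p = 5.54e-06) in KO-labelled libraries. For Krt7 the values were 0.92 (SE 0.30, adjusted p = 0.038), under the fold threshold, and 2.21 (SE 0.31, adjusted p = 3.34e-05).

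Krt4 and Krt13, the suprabasal pair of moist squamous mucosa such as the oesophagus, were among the risers. In colitis Krt4 had at most 2 counts in each of the 6 libraries. In CAC it had 7.12, 6.58 and 0.185 CPM in WT-labelled and 3.72, 10.6 and 13.5 CPM in KO-labelled libraries, at least 26.2-fold and at least 54.1-fold higher than a floor of 3 counts per colitis library, a bound that covers counting error only. Krt13 went from 0, 0.227 and 0.0627 CPM to 5.94, 4.08 and 0.832 CPM in WT-labelled libraries, a log2 change of 5.13 (SE 1.09, adjusted p = 0.00386), or 4.54 and 6.59 without colitis replicate 1 or 2. In KO-labelled libraries it went from 0.419, 0.181 and 0.303 CPM to 27.5, 2.95 and 2.51 CPM, a log2 change of 5.15 (SE 0.96, adjusted p = 3.63e-04). Without KO-labelled CAC replicate 1 that was 3.15 (SE 0.67, adjusted p = 0.0015). WT-labelled CAC replicate 3 was low for both genes, and KO-labelled replicate 1 was the high one for Krt13.

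Krt14, the type I basal keratin, was called higher as well, and Krt5, the type II partner it needs in basal cells, was not. Krt14 had 2, 1.82 and 1.38 CPM in WT-labelled colitis and 23.9, 24.2 and 2.03 CPM in WT-labelled CAC libraries, a log2 change of 3.27 (SE 0.94, adjusted p = 0.023). The call was lost without any 1 of the 3 WT-labelled colitis libraries and without CAC replicate 1 or 2 (adjusted p between 0.0012 and 0.0769 over 13 alternatives). In KO-labelled CAC tissue it had 66.8, 9.95 and 6.59 CPM, a log2 change from colitis of 2.75 (SE 0.90, adjusted p = 0.0165). Without KO-labelled CAC replicate 1 that change was 1.01 (SE 0.77, adjusted p = 0.289), and without KO-labelled colitis replicate 3 it was 2.29 (SE 1.00, adjusted p = 0.0639), so the call was lost in both. Krt5 had 3, 5 and 6 counts in WT-labelled and 0, 2 and 1 counts in KO-labelled CAC libraries, so it was at or near the floor where Krt14 had 22 to 1257 counts. Among KO-labelled libraries Krt5 was called lower in CAC than in colitis (adjusted p = 0.0398), where it had 58, 25 and 0 counts, and the call was lost in 6 of 13 alternatives, which were leaving out either of the first 2 of these or any 1 of the KO-labelled CAC libraries, and the fit of the 6 libraries, where Krt5 was not tested. Trp63, the basal cell regulator, had at most 3 counts in each of the 6 CAC libraries.

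Krt15, another type I basal keratin that also marks some intestinal crypt cells, had 6.25, 62.4 and 2.13 CPM in WT-labelled and 9.77, 5.34 and 11 CPM in KO-labelled CAC libraries. Replicate 2 of the WT-labelled group was far above the others. From colitis, where the 6 libraries had 0.285 to 1.20 CPM, the log2 change was 5.22 (SE 1.08, adjusted p = 0.00319) in WT-labelled and 3.21 (SE 0.99, adjusted p = 0.0123) in KO-labelled libraries. Without WT-labelled CAC replicate 2 the first was 2.74 (SE 0.74, adjusted p = 0.0215).

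Krt6a, the wound-induced type II keratin, was at 0, 0 and 0 counts in the WT-labelled colitis libraries and at 81, 60 and 1 in the WT-labelled CAC libraries, at least 15.2-fold higher, or 8.42-fold without CAC replicate 1. In KO-labelled CAC libraries it had 70, 27 and 20 counts, at least 11.1-fold higher than in colitis, or 5.82-fold without CAC replicate 1. Its windows are shared with Krt6b, which had at most 3 counts in every library, to 57.2%. Its partner Krt16 was called higher in both labels at few counts. It had 0, 0 and 0 counts in WT-labelled colitis and 5, 9 and 1 in WT-labelled CAC libraries (adjusted p = 0.0214, at least 1.58-fold higher), a call lost in 4 of 13 alternatives. In KO-labelled libraries it had 6, 1 and 1 and 18, 21 and 5 counts, a log2 change of 2.09 (SE 0.77, adjusted p = 0.0336), lost in 5 of 13. Of its windows 37.6% are shared with the annotated gene Gm11597, so these few counts are uncertain. Krt17, the third of this set, was not called between colitis and CAC (-0.12, SE 0.54, adjusted p = 0.902 in WT-labelled and -0.23, SE 0.54, adjusted p = 0.742 in KO-labelled libraries).

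**Figure D4:**
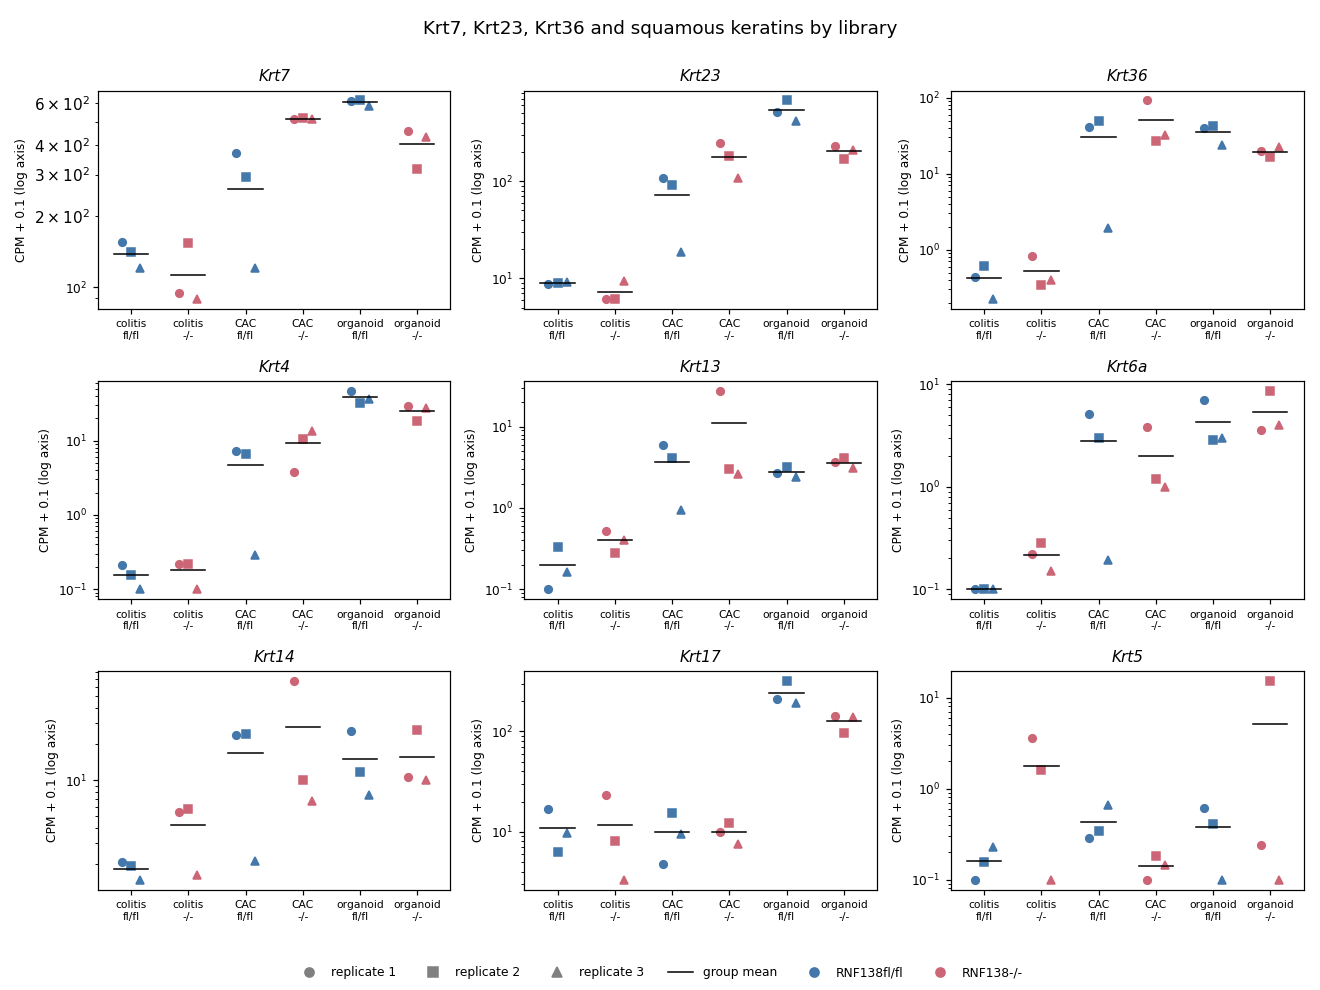
CPM + 0.1 on log axes of Krt7, Krt23, Krt36, Krt4, Krt13, Krt6a, Krt14, Krt17 and Krt5 in each library, with symbols for replicates and a line at each group mean. Krt36 and Krt13 are higher in every CAC than in every colitis library of the same label. So is Krt4 by CPM, but WT-labelled CAC replicate 3 and WT-labelled colitis replicate 1 had 2 counts each, under the floor of 3. WT-labelled CAC replicate 3 is the lowest of its group for the first 7 genes, and the 3 highest Krt5 values are those of KO-labelled organoid replicate 2 and KO-labelled colitis replicates 1 and 2.

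The cornified epidermal pair Krt1 and Krt10 was called lower in CAC than in colitis among KO-labelled libraries. Krt1 had 4, 1 and 3 counts in WT-labelled and 56, 26 and 12 in KO-labelled colitis libraries, and 1 to 6 in all CAC and organoid libraries. In colitis its log2 fold change between genotypes was 3.50 (SE 0.77, adjusted p = 0.184), and by DESeq2 the adjusted p was 0.00427. From colitis to CAC it was -3.52 (SE 0.63, adjusted p = 2.80e-04) in KO-labelled and -0.29 (SE 0.85, adjusted p = 0.838) in WT-labelled libraries. The 2 highest libraries, KO-labelled colitis replicates 1 and 2, also had the only Krt77 counts above 1 (45 and 9), and Krt5 at 58 and 25 counts. Without KO-labelled replicate 3, which had 0 counts of Krt5 and Krt77, Krt1 and Krt5 were called (adjusted p = 0.0314 and 0.0237). Skeletal muscle genes, of which 0 of 3 tested were called, had a summed level of 61.4, 34.2 and 17.7 CPM in the KO-labelled colitis libraries against 13.6, 12 and 10.5 CPM in the WT-labelled ones. Of 11 squamous genes other than keratins tested in colitis, 0 were called (0.0902% of all genes), with 7 positive and 4 negative and a median log2 fold change of 0.62. Members of the list went both ways. Lor, the cornified envelope protein loricrin, had 15, 12 and 6 counts in WT-labelled and 168, 68 and 16 in KO-labelled colitis libraries, the first 2 of the latter standing above the rest. The counts of Tgm3, a transglutaminase, were 6159, 8525 and 5215 against 1174, 130 and 891, lower in every KO-labelled library. Summed, the list had 731, 804 and 627 CPM in WT-labelled and 643, 408 and 265 CPM in KO-labelled colitis libraries, and without Tgm3, a choice made after seeing the values, 380.1, 319 and 300.3 against 573, 400.2 and 219.9 CPM, both with overlap. The part of these genes in the result was not tested. Krt10, which is expressed beyond the epidermis, had 9.11, 6.05 and 4.09 CPM in KO-labelled colitis and 2.39, 2.23 and 2.2 CPM in KO-labelled CAC libraries, a log2 change of -1.49 (SE 0.28, adjusted p = 3.98e-04).

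Krt90, a type II keratin, had 0 to 4 counts per colitis library and 9.69, 2.26 and 0.647 CPM in WT-labelled and 12.6, 6.03 and 4.75 CPM in KO-labelled CAC libraries, at least 23.8-fold higher than colitis among WT-labelled ones, or 8.22-fold without WT-labelled CAC replicate 1. Krt84, a type II hair keratin also found in tongue papillae, had 10.4, 5.62 and 1.39 CPM and 19, 2.19 and 1.52 CPM, with a log2 change from colitis of 4.30 (SE 1.09, adjusted p = 0.0115) and 2.98 (SE 0.96, adjusted p = 0.0152). The KO-labelled change was 0.97 (SE 0.80, adjusted p = 0.328) without KO-labelled CAC replicate 1, and its adjusted p was 0.0603 and 0.0501 without KO-labelled colitis replicate 1 or 2. Krt35, a type I hair keratin, was at 0 counts in all 6 colitis libraries, and in CAC it had 10, 26 and 0 and 8, 24 and 128 counts. Of 8 hair and skin genes other than keratins in the table, 3 were tested, and 0 were called from colitis to CAC in WT-labelled and 1 in KO-labelled libraries, beside 13.6% and 37.1% of all genes.

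From colitis to CAC, 6 keratins were called under all 13 alternatives in WT-labelled libraries (Krt13, Krt15, Krt23, Krt36, Krt84 and Krt90) and 11 in KO-labelled libraries. Of these 11, 3 were lower in CAC, which were Krt20 (-2.96, SE 0.60, adjusted p = 7.11e-04), Krt10 and Krt222, a keratin-like gene (-3.04, SE 0.74, adjusted p = 0.00267). Krt8 was called lower in CAC among KO-labelled libraries as well, with a log2 change of -1.19 (SE 0.27, adjusted p = 0.00154), and it was not called with CPM not scaled by TMM (-0.87). Among WT-labelled libraries Krt8 changed by -0.023 and Krt20 by 0.24 (adjusted p = 0.965 and 0.79). In KO-labelled libraries the change without CAC replicate 1 was -3.77 for Krt20 and 6.12 for Krt36, without CAC replicate 2 -3.68 for Krt222, and without colitis replicate 1 -2.76 for Krt1. In WT-labelled libraries Krt84 was 3.58 without CAC replicate 1.

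Between organoids and CAC tissue the calls differed by label. WT-labelled organoids had 0 Y-linked counts where WT-labelled CAC tissue had 2415 to 4001, and KO-labelled libraries of both had 3055 or more. Mean summed smooth muscle genes went from 3739 CPM in CAC to 741 in organoids (WT-labelled) and from 166 to 1649 (KO-labelled). B and plasma cell genes went from 1780 to 1.30 and from 159 to 0.455, and myeloid genes from 500 to 29.9 and from 797 to 129. Their part in the calls was not tested. Against CAC tissue 15 keratins were higher and 3 lower in WT-labelled libraries (62.1% of 29, where 44.3% of all genes were called). In KO-labelled libraries 7 were higher and 1 lower (27.6%, where 44.4% of all genes were called), or 5 and 4 with CPM not scaled by TMM, a setting that moved the median of all genes by -0.62 there. The median log2 fold change of the 29 keratins was 1.05 and 0.37, beside -0.14 and -0.22 over all genes. Krt17, the wound-induced type I keratin, had 3.23 to 23.2 CPM in the 12 tissue libraries, 212, 316 and 192 CPM in WT-labelled organoids and 141, 97.1 and 139 CPM in KO-labelled organoids, with log2 changes from CAC of 4.64 (SE 0.61, adjusted p = 1.08e-05) and 3.69 (SE 0.58, adjusted p = 5.71e-05). Krt16, its type I neighbour, was called higher too (3.93, SE 0.69, adjusted p = 2.48e-04, and 2.35, SE 0.62, adjusted p = 0.00461), at 2.43 to 8.07 CPM.

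Krt18 was called higher in organoids than in CAC tissue among WT-labelled libraries (1.35, SE 0.22, adjusted p = 7.21e-05), with 0.21 (SE 0.21, adjusted p = 0.403) among KO-labelled ones. Krt80 was called higher among both (2.22, SE 0.57, adjusted p = 0.00322, and 3.03, SE 0.58, adjusted p = 3.64e-04). Krt23 was called among WT-labelled libraries alone (2.92, SE 0.46, adjusted p = 6.24e-05, and 0.19, SE 0.43, adjusted p = 0.72), and so was Krt4 (3.04, SE 0.68, adjusted p = 0.00112, and 1.43, SE 0.63, adjusted p = 0.0618). Krt20 fell in WT-labelled libraries (-2.81, SE 0.60, adjusted p = 7.96e-04), from the higher level that these had in CAC, with 0.87 in KO-labelled ones (adjusted p = 0.192). Whether the WT-labelled and KO-labelled changes differ was tested by the difference of genotype effects given above, which was called for Krt18, Krt23 and Krt20, while Krt4 was not called (-1.62, SE 0.89, adjusted p = 0.204). Krt5 was called higher in KO-labelled organoids (adjusted p = 0.00734), which rests on replicate 2, with 284 counts of Krt5 against 2 and 0 in the other 2 and with 21 counts of Trp63. Without that replicate the adjusted p was 0.835. Among the hair keratins, Krt39 had 74, 35 and 33 counts in WT-labelled organoids against 0, 4 and 1 in CAC (4.84, SE 0.71, adjusted p = 3.15e-05), Krt33b was at least 19.5-fold (9.80-fold without organoid replicate 2) and Krt34 at least 13.3-fold (8.65-fold without organoid replicate 1) higher than the floor of CAC, and Krt35 was called too (3.37, SE 0.99, adjusted p = 0.0109). Krt222 was lower in WT-labelled organoids, by at least 8.54-fold, or 3.68-fold without WT-labelled CAC replicate 3. Leaving out WT-labelled CAC replicate 3 also gave -1.87 for Krt20 and 3.05 for Krt80. Without WT-labelled CAC replicate 2 the values were 6.08 for Krt39 and 4.29 for Krt35, and without organoid replicate 2 Krt35 was 2.77.

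Between genotypes in organoids, the 9 called keratins came from 5 classes and from the unclassified genes. Krt90 had 15, 11.2 and 10.7 CPM in WT-labelled and 1.81, 1.95 and 1.86 CPM in KO-labelled libraries, a log2 fold change of -2.76 (SE 0.22, adjusted p = 5.91e-04). Krt33b, a type I hair keratin, had 52, 101 and 15 counts against 5, 5 and 10, with -3.20 (SE 0.80, adjusted p = 0.0176). Krt34, of the same hair cluster, had 80, 32 and 15 counts against 7, 3 and 7, with -2.88 (SE 0.66, adjusted p = 0.0127). In each of these genes all 3 KO-labelled libraries were below all 3 WT-labelled ones. Krt33b and Krt34 share 24.2% and 33.1% of their windows with other keratins of the cluster, so reads between them are uncertain.

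Krt35 (-1.96, SE 0.49, adjusted p = 0.0176), Krt88 (-2.11, SE 0.40, adjusted p = 0.0065) and Krt78 (-1.66, SE 0.50, adjusted p = 0.0341) were the other scarce ones, at a mean of 1.06 to 6.89 CPM in WT-labelled organoids. Krt10 had 6.81, 8.78 and 6.55 CPM in WT-labelled and 3.55, 3.48 and 4.24 CPM in KO-labelled organoids, without overlap (-1.02, SE 0.22, adjusted p = 0.0111). Of the 9, Krt23, Krt88 and Krt90 were called under all 13 alternatives. Without KO-labelled replicate 2 the count was 4, and Krt10, Krt18, Krt33b, Krt34 and Krt78 were not called. Without KO-labelled replicate 1 Krt10, Krt33b, Krt35 and Krt78 were not called (log2 fold changes -0.98, -3.06, -1.66 and -1.66), and without replicate 3 Krt35 and Krt78. Krt10 was lost without WT-labelled replicate 2 and Krt78 without replicate 3. The log2 fold change of Krt33b was -2.21 and that of Krt35 -1.34 without WT-labelled replicate 2, and that of Krt34 was -2.24 without replicate 1. Below the fold threshold, with an adjusted p under 0.05, were Krt7, Krt8, Krt17 (-0.99), Krt36 (-0.92), Krt4 (-0.66) and Krt87 (-0.77, with 36.9% of its windows shared with another annotated gene), all lower in KO-labelled libraries. Krt14 (0.016, SE 0.50, adjusted p = 0.984), Krt15 (1.29, SE 0.66, adjusted p = 0.158), Krt13 (0.35, SE 0.26, adjusted p = 0.313) and Krt6a (0.30, SE 0.46, adjusted p = 0.633) did not pass the test.

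Fibroblast genes moved with this comparison. Of 6 tested, 5 were called higher in KO-labelled organoids, where 15% of all genes were called in either direction. Among the 5 were Dcn (2.03, SE 0.24, adjusted p = 0.00156) and Col3a1 (2.12, SE 0.38, adjusted p = 0.00542). The summed level of the 6 was 23058, 8935 and 9659 CPM in WT-labelled and 40113, 49520.5 and 46052 CPM in KO-labelled organoids. The mean log2 CPM of the 14 epithelial genes overlapped (7.4, 7.12 and 7.66 against 7.45, 6.81 and 7.26). In the 12 tissue libraries the sum of the 6 fibroblast genes was 923 to 1740 CPM, so this sum was higher in the organoid libraries. The epithelial mean was lower in organoids than in the colitis tissue, where it was 8.85 to 9.34. Which cells the fibroblast list genes came from, and their part in the lower keratins, was not tested.

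**Figure D5:**
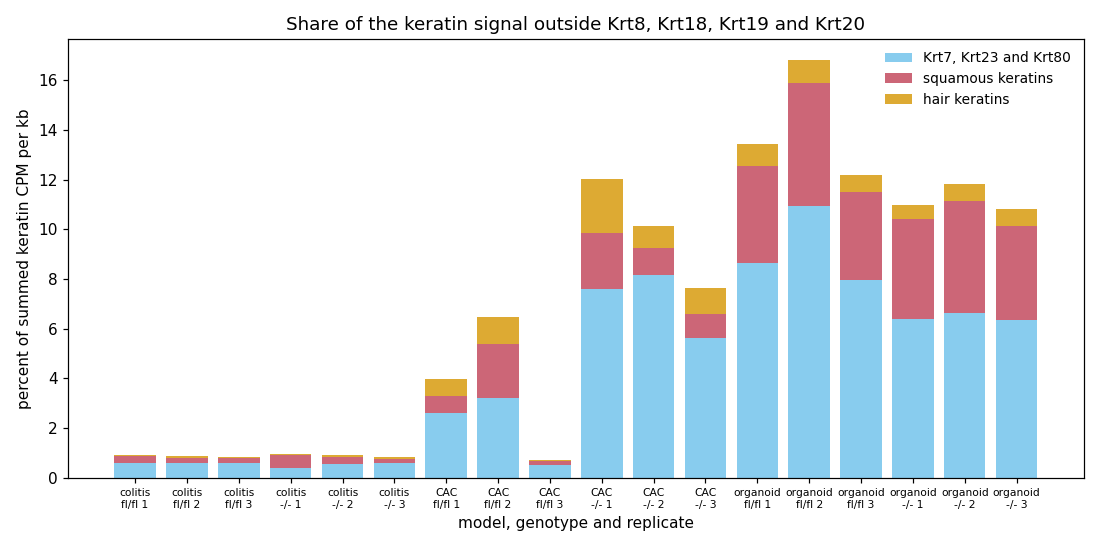
Percent of summed keratin CPM per kb taken by Krt7, Krt23 and Krt80, by the 16 squamous and by the 24 hair keratins in each library, stacked, with the axis from 0. The stacks are under 1% in all colitis libraries and in WT-labelled CAC replicate 3, and those of the KO-labelled CAC libraries stand above those of all WT-labelled CAC ones.

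By share, the 16 squamous keratins together took 0.679, 2.17 and 0.19% of keratin CPM per kb in WT-labelled and 2.29, 1.09 and 0.962% in KO-labelled CAC libraries, with overlap (exact p = 0.5). In the organoids they took 3.9, 4.97 and 3.54% and 4.02, 4.51 and 3.79%, also with overlap. Their summed level there was 194 ± 40.3 CPM per kb in WT-labelled and 119 ± 14.3 in KO-labelled libraries (SD, n = 3). That level did not overlap (-0.70 on the log2 scale, exact permutation p = 0.1), and Krt17 alone gave means of 155 and 81.0 of it. In colitis the squamous keratins took 0.17% to 0.535% in the 6 libraries. The hair keratins took 0.669, 1.1 and 0.043% and 2.17, 0.9 and 1.06% in CAC, with overlap. The ratio of all type II to all type I keratins per length was 0.903, 0.83 and 0.981 in WT-labelled and 0.667, 0.727 and 0.843 in KO-labelled CAC libraries, and 0.845, 0.662 and 0.869 and 0.922, 0.933 and 0.922 in the organoids. It overlapped in CAC (exact p = 0.2) and not in the organoids, where it was higher in KO-labelled libraries (exact p = 0.1).

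Genes that work with keratins were read from lists. Of 14 desmosome and linker genes tested, 1 was called in CAC and 2 in the organoids, shares near those of all genes (5.37% and 15%). The one in CAC was Dst, lower in KO-labelled libraries, which encodes the hemidesmosome linker BPAG1 and other forms of muscle and nerve (-1.93, SE 0.32, adjusted p = 0.0323). In the organoids Dst (1.41, SE 0.25, adjusted p = 0.00542) and Plec, the linker plectin (1.19, SE 0.25, adjusted p = 0.00917), were called higher. In colitis 0 of the 14 were called. The list of other intermediate filament genes has 14 members. Not all passed the filter on low counts in the organoids, where Gfap had 0 to 4 counts. In colitis 0 were called, beside 0.0902% of all genes. In the organoids 1 was higher, Nes of progenitor and stromal cells (1.33, SE 0.29, adjusted p = 0.0105), beside 15% of all genes. In CAC 3 were lower, beside 5.37% of all genes. They were Des of muscle (-6.54, SE 1.08, adjusted p = 0.0317), Synm of muscle (-5.12, SE 0.66, adjusted p = 0.0246) and Prph of neurons (-5.90, SE 0.58, adjusted p = 0.0171).

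Of 15 squamous genes other than keratins tested in CAC, 0 were called between genotypes, where 5.37% of all genes were (median log2 fold change 0.16). In the organoids, where 15% of all genes were called, 1 of 18 was higher, Sbsn (1.32, SE 0.31, adjusted p = 0.0134), and 1 lower, Ivl (-1.05, SE 0.30, adjusted p = 0.0291), both of the cornified layers. From colitis to CAC 3 of 18 were called higher in WT-labelled and 6 higher and 2 lower in KO-labelled libraries, beside 13.6% and 37.1% of all genes called in either direction. Dsg3, the desmoglein of basal and mucosal squamous cells, had at most 3 counts in every colitis library, 106, 53 and 4 in WT-labelled and 731, 218 and 84 in KO-labelled CAC libraries (adjusted p = 0.0062 and 8.40e-05). Ly6d, a squamous surface protein, was called higher in both labels (3.38, SE 0.70, adjusted p = 0.00334, and 1.69, SE 0.65, adjusted p = 0.0377). From CAC to organoids 7 and 8 of 18 were called, beside 44.3% and 44.4% of all genes.

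Cell type lists also moved with the CAC comparison. All 6 smooth muscle genes and all 6 B and plasma cell genes were called lower in KO-labelled libraries, and 8 of 12 genes of colonocyte and goblet differentiation were, among them Aqp8 (-7.87, SE 0.68, adjusted p = 0.0168) and Car4 (-6.51, SE 1.20, adjusted p = 0.0377), which like Krt20 mark the mature surface. The summed level of the 12 was 15439.9, 28292 and 52599.7 CPM in WT-labelled and 2645, 1948 and 3318 CPM in KO-labelled libraries, and that of smooth muscle 2165, 2871 and 6179 and 110.4, 171 and 216 CPM. WT-labelled replicate 3 was the highest for both. Of the 14 epithelial genes 3 were called lower, the intestinal regulators Cdx1 (-1.28, SE 0.21, adjusted p = 0.031) and Cdx2 (-3.95, SE 0.81, adjusted p = 0.0446) and Phgr1 (-3.14, SE 0.63, adjusted p = 0.0426). Of the other lists 3 of 6 enteric glia and neuron genes and 1 of 3 skeletal muscle genes were called lower, and 0 of 6 fibroblast, 0 of 6 myeloid and 0 of 2 hair and skin genes were called, beside 5.37% of all genes. In colitis 0 genes of these lists were called. In the organoids, beside 15% of all genes, 2 of 6 smooth muscle and 2 of 5 myeloid genes were called higher, and 1 of 5 myeloid, 1 of 1 B and plasma cell, 1 of 3 hair and skin, 2 of 11 differentiation genes and 1 epithelial gene, Cdx2 (-1.24, SE 0.37, adjusted p = 0.0318), lower. The part of differing tissue content in the keratin values of CAC was not tested.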

How the data were processed

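Gene counts of 18 libraries, as the authors deposited them, were used, 3 per genotype label and model. The submitters' processing notes name STAR 2.6.1d, HTSeq 0.11.2, DESeq2 and the mm10 build, and the strand setting is not given in the sources used here, so overlapping genes can share reads. The authors also deposited a table of their own fold changes and p-values, which was not used. Members and gene lists were chosen with earlier results of these data known.

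Genes were filtered and tested with edgeR 4.0.16 (R 4.3.3) after TMM normalization and filterByExpr, with glmQLFit and glmQLFTest, and p-values were adjusted over all genes tested (Benjamini-Hochberg). A call needed an adjusted p under 0.05 and a fold of at least 2. Genotypes were compared in fits of the 6 libraries of a model, and models and differences of genotype effects in 1 fit of all 18. DESeq2 1.42.0 was an alternative. CPM were scaled by TMM over 18 libraries and divided by exon length (mm10 annotation) for levels between genes. Library values were compared by exact permutation tests, two-sided, which cannot go below p = 0.1 with 3 against 3. Bounds use a floor of 3 counts per library and cover counting error only. Reads shared between genes were estimated from 50-base transcript windows. Scripts were tested on simulated counts with known folds.

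The text names the paired simple and squamous keratins and, per comparison, up to 10 called keratins with the largest fold among those whose higher group averaged 1 CPM or more and whose groups did not overlap, plus up to 2 called genes per direction of each context list. Krt12, Krt77, Krt87, Cdx1, Lor, Synm, Trp63, Vim and Lmna, and genes given with a value that was not called, were chosen after their values were seen. Alternatives are given under the dependence on processing.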

Additional observations from a re-analysis of the deposited data

Results flagged for a closer look

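The genotype difference, KO-labelled over WT-labelled, was itself different between models for the keratins below, by edgeR's test of the difference with Benjamini-Hochberg adjustment over all genes (adjusted p under 0.05 and a difference of at least 1 on the log2 scale). For CAC minus colitis the log2 difference was -3.20 for Krt20, -3.71 for Krt222, -5.11 for Krt12, the corneal keratin, -1.28 for Krt10, -1.17 for Krt8 and 1.29 for Krt7. Krt7 alone was relatively higher in KO-labelled CAC tissue. Without WT-labelled CAC replicate 3 none of these 6 was called. Over 18 alternatives the call of Krt10 was lost in 12, those of Krt7, Krt8 and Krt12 in 11 each, Krt222 in 3 and Krt20 in 1. Krt12 rests on at most 16 counts per library, with 16, 10 and 7 in KO-labelled colitis tissue and 0, 2 and 12 in WT-labelled CAC tissue, and 42% of its windows are shared with an overlapping gene. Krt222 had 10, 18 and 40 counts in WT-labelled and 2, 8 and 3 in KO-labelled CAC libraries.

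For organoids minus CAC the log2 difference was 3.68 for Krt20, -1.61 for Krt7, -1.14 for Krt18, -2.74 for Krt23, -1.80 for Krt87, -2.99 for Krt39, -3.76 for Krt88 and -3.62 for Krt90. Krt20 alone was relatively higher in KO-labelled organoids. Of these, Krt7, Krt20, Krt23, Krt88 and Krt90 were called under all 18 alternatives, and Krt18 was lost without KO-labelled organoid replicate 2. The calls of Krt39 and Krt87 were lost in 7 and 8 of the 18, each time on leaving out 1 library. Krt39 and Krt88 were scarce, with 0, 4 and 1 and 2, 1 and 2 counts in WT-labelled CAC tissue, so the sizes of their differences are uncertain. Both sets of differences share the CAC libraries, and sex and genotype cannot be told apart in the organoids.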

How the results depend on the processing

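In CAC the genotype count of 0 keratins became 4 with DESeq2 (Krt8, Krt20, Krt87 and Krt222), 1 with no filter on low counts (Krt20) and 5 in a fit of all 18 libraries, and stayed at 0 without any 1 library. In colitis the count of 0 became 1 with DESeq2 and 3 with no filter, and 0 to 2 without 1 library. In organoids the count of 9 became 15 with no fold threshold and 4 to 11 without 1 library. From colitis to CAC the WT-labelled count of 13 became 7 in a fit of the 6 libraries compared and 8 to 12 without 1 library, and the KO-labelled count of 23 (15 higher, 8 lower) became 16 (10 higher, 6 lower) in that fit, 26 with no filter and 19 to 21 without 1 library. From CAC to organoids leaving out 1 library gave 15 to 18 and 7 to 9. The differences of genotype effects gave 0 to 7 (CAC minus colitis, 0 without WT-labelled CAC replicate 3) and 5 to 9 (organoids minus CAC, 5 without KO-labelled organoid replicate 2).

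Some small differences changed sign. For the simple keratin level in colitis, the log2 difference was 0.019 with RLE normalization and -0.14 to 0.14 without 1 library. The squamous share differed by -0.0087 to 0.17 percentage points in colitis and by -0.32 to 0.39 in organoids without 1 library. Relative to epithelial genes, the simple keratins differed by -0.030 to 0.097 in colitis and -0.24 to 0.0037 in CAC without 1 library, and by 0.16 in organoids with Epcam alone as reference. The log2 fold change of Krt18 in CAC was 0.27 with CPM not scaled by TMM, 0.030 with no filter, 0.039 in the fit of 18 libraries and -0.11 to 0.063 without 1 library. In colitis Krt18 was -0.014 unscaled, -0.016 with the replicate block and -0.15 to 0.26 without 1 library, Krt20 was -0.017 unscaled, -0.0042 with no filter and -0.20 to 0.20 without 1 library, and Krt8 was -0.063 to 0.26. Krt15 from CAC to organoids in WT-labelled libraries was -2.73 to 0.26, the latter without WT-labelled CAC replicate 2. A larger change was that of the simple keratins relative to epithelial genes in CAC, from -0.11 to 0.54 without Krt20, where all 3 KO-labelled libraries lay above the WT-labelled ones (exact p = 0.1, the smallest that 3 against 3 allow). The cause of these changes was not tested.

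Without TMM the median log2 fold change of all genes moved by 0.26 in CAC and -0.20 in organoids between genotypes, by 0.31 and -0.62 from colitis to CAC and on to organoids among KO-labelled libraries, by -0.17 from CAC to organoids among WT-labelled ones, and by 0.24 and -0.46 for the differences of genotype effects. Whether replicate numbers pair the samples was not settled. In colitis the correlation of deviations was 0.217, 0.0865 and 0.467 for same-numbered libraries and -0.365 to 0.241 for other numbers. For CAC tissue it was 0.0397, 0.204 and 0.0708 against -0.14 to 0.0469. For organoids it was -0.193, -0.0797 and 0.0623 against -0.147 to 0.211. With the number as a replicate block 0, 0 and 8 keratins were called by genotype in colitis, CAC and organoids, 12 and 23 from colitis to CAC, 17 and 10 from CAC to organoids, and 4 and 8 for the differences. The planned term for sex was not run, because all colitis and CAC libraries carried Y-linked counts and sex followed genotype in the organoids. At most 3 counts in every library limit 12 keratins to no statement. Folds given as bounds were also computed without each library of the higher group, an alternative chosen after seeing the data.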

Other observations

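Intermediate filaments other than keratins were also compared between organoids and CAC tissue. Among WT-labelled libraries 4 of 14 were called higher and 7 lower in organoids, where 44.3% of all genes were called in either direction. Among KO-labelled libraries 4 were higher and 2 lower, a share near the 44.4% of all genes called. Vim, the vimentin of mesenchymal cells (2.40, SE 0.28, adjusted p = 3.27e-06, and 2.75, SE 0.28, adjusted p = 8.04e-07), Nes (1.52, SE 0.32, adjusted p = 7.31e-04, and 2.82, SE 0.33, adjusted p = 3.10e-06) and Lmna, the nuclear lamin A/C (1.23, SE 0.25, adjusted p = 6.35e-04, and 2.40, SE 0.26, adjusted p = 1.59e-06), were higher in both labels. Fibroblast genes were higher alongside, 5 of 6 in WT-labelled and 6 of 6 in KO-labelled libraries, and their part in these values was not tested. Genes of colonocyte and goblet differentiation were lower in organoids, 12 of 12 among WT-labelled and 9 of 12 among KO-labelled libraries. The same shares of all genes called, 44.3% and 44.4%, stand beside the fibroblast and differentiation counts.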
